A study of Mus musculus with 9 samples.

Results

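The genes described here are those of the major histocompatibility complex (MHC), which in the mouse carry symbols beginning with H2-, together with 10 genes that supply, load or switch on MHC molecules: B2m, Tap1, Tap2, Tapbp, Cd74, Ciita, Nlrc5, Psmb8, Psmb9 and Psmb10. They were chosen by symbol, and a row was kept if it had 10 or more counts in at least 3 of the 9 libraries. Of 23393 gene rows in all, 54 carried such a symbol and 33 were kept. RNA sequencing counted their transcripts in sorted mouse spleen Tregs, regulatory CD4 T cells that express Foxp3 and hold other immune cells in check. The series concerns Tregs that carry ST2, the interleukin-33 receptor encoded by Il1rl1, in kidney inflammation and fibrosis after ischemia. Its 3 groups of 3 samples are Tregs of wild-type genotype low in ST2 (ST2-low), Tregs of the same genotype high in ST2 (ST2-high), and Tregs of genotype ST2KO. All were sorted, by markers that the labels do not name. Strain, age, injury and treatment are not labelled, nor is it stated that the 3 replicates of a group were different animals. The p-values thus set group differences only against the scatter of these samples, which may be technical and not between animals.

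MHC class I molecules, made of a heavy chain and the light chain beta-2 microglobulin, show peptides from the cell's own proteins to CD8 T cells and are made by nearly all nucleated cells. Their peptides are cut by the proteasome, whose catalytic subunits are exchanged for those of the immunoproteasome in lymphocytes and under interferon, and are carried into the endoplasmic reticulum by the TAP transporter. MHC class II molecules show peptides taken up from outside to CD4 T cells and belong to B cells, dendritic cells and macrophages. Mouse T cells make little class II of their own. The transactivator Nlrc5 acts on class I promoters and Ciita on class II promoters.

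Libraries held between 11659659 and 43406680 counts, both extremes being ST2KO samples, and the 33 genes took 0.666% to 0.789% of them. Levels are given as CPM, counts scaled to a common library size with TMM factors, always in the order of replicates 1, 2 and 3, and are compared between groups, not between genes. Il1rl1 stood at 2.62 ± 0.837 CPM in the ST2-low group, 494 ± 65.9 CPM in the ST2-high group and 67.5 ± 14.03 CPM in the ST2KO group (SD, n = 3 each); which exons were read is not visible in these counts, so this does not check the knockout label. Foxp3 had 461 ± 16.3 CPM, 567 ± 47.7 CPM and 430.0 ± 17.6 CPM, and Cd4 422 ± 6.02 CPM, 441 ± 9.59 CPM and 423 ± 17.4 CPM. ST2-high replicate 3 stood apart from its group, with a chi-square per gene of up to 19.9 against its fellows, compared with at most 8.22 in pairs without it.

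A gene was called changed at an adjusted p under 0.05 in edgeR's quasi-likelihood test over all 12219 genes tested, which included all 33. In ST2-high against ST2-low, 11 of the 33 were higher and 2 lower, where 15.3% of all genes tested were higher and 10.8% lower. In ST2KO against ST2-low, 11 were higher and 8 lower, beside 33.0% and 29.3% of all genes. In ST2KO against ST2-high, 11 were higher and 11 lower, beside 31.9% and 32.6%. The members' shares of 33.3% higher and, in turn, 24.2% and 33.3% lower in the comparisons with ST2KO are thus near those of all genes. By role the calls were unlike each other. The immunoproteasome genes Psmb8, Psmb9 and Psmb10 and the transporter genes Tap1 and Tap2 were higher in ST2KO than in either wild-type group, H2-Aa, H2-Ab1, H2-Eb1 and Cd74 of the 10 class II genes were lower than in either, and heavy chain genes of class I were called in both directions. The differences were mostly small: of the called genes, 1 of 13, 2 of 19 and 3 of 22 differed by 2-fold or more. H2-Q10, counted as higher in each comparison, reached 10 counts only in ST2-high and ST2KO libraries, so its calls against ST2-low support nothing; without it 10 genes were higher in each of these 2 comparisons. The median log2 fold change of the 33 was 0.12, 0.10 and 0.0070 in the 3 comparisons, and that of all genes tested -0.0024, 0.051 and 0.020. Since both wild-type groups are compared with the same ST2KO libraries, the last pair of comparisons is not independent.

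**Figure D1:**
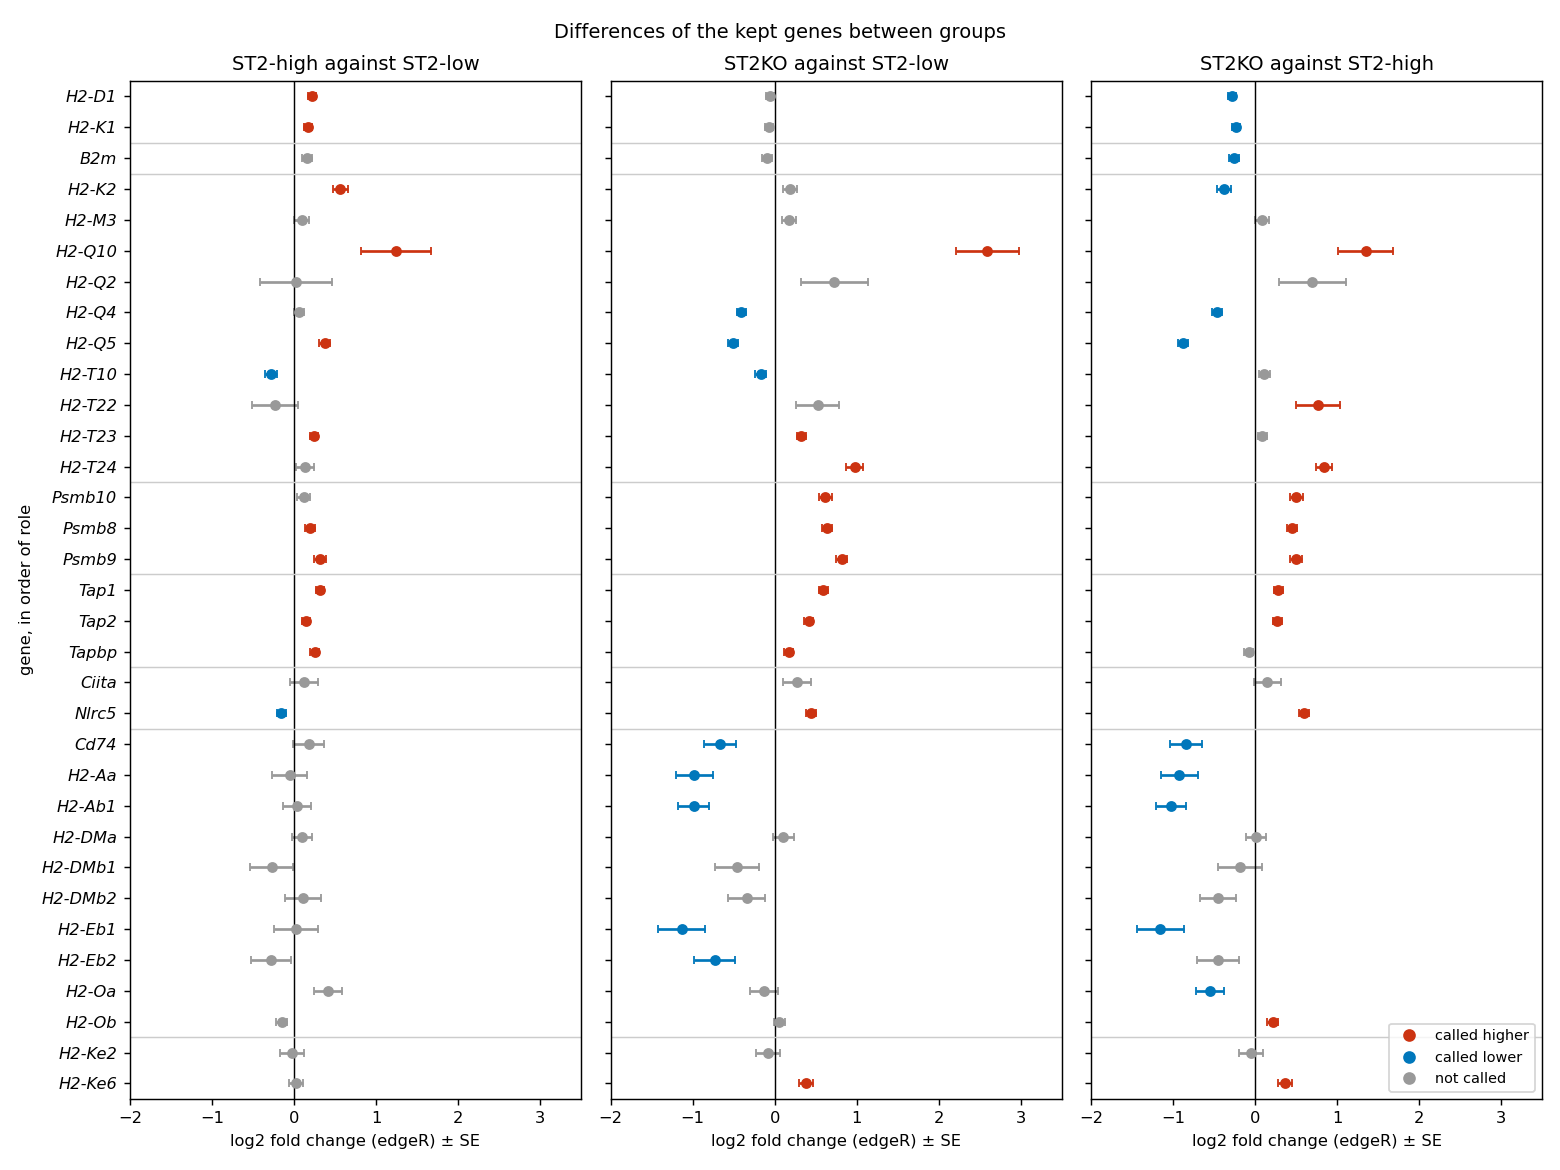
Log2 fold change (x axis) of each of the 33 genes (y axis, in order of role) in 3 comparisons, from the edgeR fit with its SE; red and blue mark genes called higher and lower and grey those not called. In both comparisons with ST2KO the 3 immunoproteasome genes lie right of 0 and the class II genes H2-Aa, H2-Ab1, H2-Eb1 and Cd74 left of it.

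H2-K1 and H2-D1 encode the classical heavy chains, which present peptides to CD8 T cells. H2-K1 stood at 2375, 2368 and 2449.7 CPM in the ST2-low libraries, 2656, 2669.5 and 2750.1 CPM in the ST2-high libraries and 2325, 2209 and 2347 CPM in the ST2KO libraries. H2-D1 stood at 584, 583 and 561 CPM in the ST2-low libraries, 697, 656 and 667 CPM in the ST2-high libraries and 561, 544 and 551 CPM in the ST2KO libraries. For both genes the ST2-high libraries lay above all 6 others, and the ST2-low and ST2KO libraries lay close together. H2-D1 was 1.17-fold higher in ST2-high than ST2-low (log2 fold change 0.23 ± 0.049 SE, edgeR adjusted p = 0.000722) and H2-K1 1.12-fold higher (log2 fold change 0.17 ± 0.05 SE, edgeR adjusted p = 0.0117). The call of H2-K1 was lost without ST2-low replicate 1 or 2 (edgeR adjusted p = 0.0505 and 0.0655). In ST2KO, H2-D1 was 1.22-fold lower and H2-K1 1.17-fold lower than ST2-high (edgeR adjusted p = 7.74e-06 and 0.000168). Neither passed in ST2KO against ST2-low, with log2 fold changes of -0.062 and -0.064 (edgeR adjusted p = 0.277 and 0.264), but both passed as lower when only those 6 libraries were fitted (0.0411 and 0.0273) or with DESeq2's test (0.042 and 0.027). The ratio of H2-K1 to H2-D1 counts was 4.07, 4.06 and 4.37 in ST2-low, 3.81, 4.07 and 4.12 in ST2-high and 4.15, 4.06 and 4.26 in ST2KO, between 3.81 and 4.37 in all 9 libraries.

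The promoters of these genes, from the RefSeq annotation of GRCm38.p6 (250 bases before to 50 bases after the transcript start), are shown because both hold a short sequence that few promoters have. Capitals mark GGGATTCCC, a form of the core of the NF-kB binding sequence, and the CCAAT box (CCAAT), to which the factor NF-Y binds; both were searched on both strands (reading GGGAATCCC and ATTGG where the match is on the other strand). The H2-K1 window is chr17:34000298-34000597, minus strand, and the H2-D1 window chr17:35262844-35263143, plus strand.
H2-K1: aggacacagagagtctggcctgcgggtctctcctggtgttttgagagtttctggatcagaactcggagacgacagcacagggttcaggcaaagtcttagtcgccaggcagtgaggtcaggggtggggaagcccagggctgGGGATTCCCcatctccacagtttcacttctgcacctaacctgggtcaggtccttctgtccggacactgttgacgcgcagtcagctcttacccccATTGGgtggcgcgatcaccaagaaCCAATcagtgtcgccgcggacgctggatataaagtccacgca
H2-D1: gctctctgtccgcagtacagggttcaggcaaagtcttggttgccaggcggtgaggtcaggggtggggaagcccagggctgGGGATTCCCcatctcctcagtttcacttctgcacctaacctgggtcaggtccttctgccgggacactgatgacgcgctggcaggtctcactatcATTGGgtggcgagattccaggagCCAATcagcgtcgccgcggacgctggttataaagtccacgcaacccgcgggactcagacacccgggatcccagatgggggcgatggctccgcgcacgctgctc
GGGATTCCC begins 110 bases before the start in H2-K1 and 170 bases before it in H2-D1. It occurs in 116 of the 32851 RefSeq promoter windows searched (0.353%), and in 2 of the 23 members that have a window there. The CCAAT box is common, in 37.4% of all windows and in 19 of the 23 members. A match in these letters is a description of the window and does not show that a factor was bound.

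B2m, the light chain of all class I molecules, stood at 1309, 1247 and 1225 CPM in the ST2-low libraries, 1458, 1544 and 1233 CPM in the ST2-high libraries and 1231, 1167 and 1143 CPM in the ST2KO libraries. ST2-high replicate 3, the library that stood apart, lay among the ST2-low libraries while the other ST2-high libraries lay above them. B2m did not pass in ST2-high against ST2-low (log2 fold change 0.16 ± 0.062 SE, edgeR adjusted p = 0.0521) but passed as higher without ST2-high replicate 3, with the replicate block and with no filter on low counts (edgeR adjusted p = 8.45e-05, 0.0346 and 0.0134). It was 1.20-fold lower in ST2KO than ST2-high (edgeR adjusted p = 0.000703), and did not pass against ST2-low in the fit of all 9 libraries (adjusted p = 0.189), though it passed as lower in the fit of those 6 libraries alone and without ST2-high replicate 3 (0.00686 and 0.0146).

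Nonclassical class I genes resemble H2-K1 and H2-D1 but are less polymorphic and have special tasks. Of the 10 kept, 4 were higher and 1 lower in ST2-high against ST2-low, 3 higher and 3 lower in ST2KO against ST2-low, and 3 higher and 3 lower in ST2KO against ST2-high. The higher genes of both comparisons with ST2-low include H2-Q10. It reached 10 counts only in ST2-high and ST2KO libraries, so these calls of it support nothing. Of all genes tested, 15.3% were higher and 10.8% lower in the first comparison, 33.0% and 29.3% in the second and 31.9% and 32.6% in the third, so the counts with ST2KO are near those of all genes. H2-T23 encodes Qa-1, which presents leader peptides of other class I chains to receptors of NK cells and T cells. It stood at 182, 166 and 174 CPM in the ST2-low libraries, 212, 202 and 202 CPM in the ST2-high libraries and 218, 221 and 216 CPM in the ST2KO libraries. All ST2-high and ST2KO libraries lay above all ST2-low libraries. H2-T23 was 1.18-fold higher in ST2-high (log2 fold change 0.24 ± 0.05 SE, edgeR adjusted p = 0.000487) and 1.25-fold higher in ST2KO (log2 fold change 0.33 ± 0.05 SE, edgeR adjusted p = 1.68e-06) than ST2-low. The difference between ST2KO and ST2-high did not pass (edgeR adjusted p = 0.13) but passed as higher with upper-quartile scaling (0.00454).

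H2-T24 stood at 15.4, 14.8 and 13.5 CPM in the ST2-low libraries, 18.4, 14.8 and 14.3 CPM in the ST2-high libraries and 30.6, 28.5 and 26.01 CPM in the ST2KO libraries. Every ST2KO library lay far above every wild-type library, while ST2-low and ST2-high overlapped. H2-T24 was 1.96-fold higher in ST2KO than ST2-low (log2 fold change 0.97 ± 0.10 SE, edgeR adjusted p = 2.03e-09) and 1.78-fold higher than ST2-high (edgeR adjusted p = 2.79e-08), and it was also called when a minimum fold of 1.5 was the tested limit (edgeR's glmTreat, adjusted p = 0.000731 and 0.01465). H2-Q10, known as a secreted class I chain of the liver, was rare here, with 7, 8 and 9 counts in ST2-low, 30, 11 and 21 in ST2-high and 96, 43 and 42 in ST2KO. It was the kept row nearest to the count rule, reaching 10 counts in 6 of 9 libraries, while H2-M2, the nearest row outside it, had at most 7. In CPM it was 0.378, 0.441 and 0.452 in ST2-low, 1.05, 0.637 and 1.38 in ST2-high and 2.08, 2.51 and 3.44 in ST2KO, with no overlap between any 2 groups. As H2-Q10 met the count rule only through ST2-high and ST2KO, its differences from ST2-low, 6.03-fold in ST2KO and 2.38-fold in ST2-high, are a description without a test. It was 2.54-fold higher in ST2KO than ST2-high (edgeR adjusted p = 0.000835).

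H2-Q4 and H2-Q5 went the other way in ST2KO. H2-Q4, a nonclassical gene of the Q region, stood at 576, 641 and 641 CPM in the ST2-low libraries, 623, 612 and 706 CPM in the ST2-high libraries and 464, 453 and 487 CPM in the ST2KO libraries. Both wild-type groups overlapped and every ST2KO library lay below them. H2-Q4 was 1.32-fold lower in ST2KO than ST2-low (log2 fold change -0.40 ± 0.058 SE, edgeR adjusted p = 5.30e-07) and 1.38-fold lower than ST2-high (edgeR adjusted p = 3.81e-08). H2-Q5, which RefSeq classes as a transcribed pseudogene, stood at 96.6, 104 and 109 CPM in the ST2-low libraries, 126, 131 and 146 CPM in the ST2-high libraries and 76.4, 73.7 and 66.8 CPM in the ST2KO libraries. Here all 3 groups were separate, ST2-high highest and ST2KO lowest. The fall from ST2-high to ST2KO was 1.84-fold (log2 fold change -0.88 ± 0.063 SE, edgeR adjusted p = 3.56e-13), and H2-Q5 was 1.30-fold higher in ST2-high than ST2-low (edgeR adjusted p = 2.45e-05) and 1.42-fold lower in ST2KO than ST2-low (adjusted p = 4.67e-08).

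The transcribed pseudogene H2-K2, a neighbour of H2-K1, was 1.48-fold higher in ST2-high than ST2-low (log2 fold change 0.57 ± 0.087 SE, edgeR adjusted p = 7.28e-06). It stood at 23.3, 23.05 and 25.1 CPM in the ST2-low libraries, 31.3, 35.5 and 39.8 CPM in the ST2-high libraries and 27.7, 26.2 and 27.5 CPM in the ST2KO libraries, with ST2-high above both other groups. In ST2KO it was 1.30-fold lower than ST2-high (edgeR adjusted p = 0.000329). H2-T10, classed as a transcribed pseudogene in RefSeq, was 1.22-fold lower in ST2-high than ST2-low (edgeR adjusted p = 0.00246). It stood at 61.5, 71.2 and 73.4 CPM in the ST2-low libraries, 52.7, 56.97 and 60.6 CPM in the ST2-high libraries and 61.98, 59.1 and 61.8 CPM in the ST2KO libraries. It was also called lower in ST2KO against ST2-low (adjusted p = 0.0306), where groups overlapped and the call was lost under 5 alternatives besides a minimum fold (adjusted p between 0.0531 and 0.197). H2-T22, a ligand of some gamma-delta T cell receptors, stood at 2.43, 1.54 and 1.71 CPM in the ST2-low libraries, 1.43, 1.68 and 1.78 CPM in the ST2-high libraries and 3.04, 2.34 and 2.70 CPM in the ST2KO libraries. It was 1.70-fold higher in ST2KO than ST2-high (adjusted p = 0.0142), and this call was lost without ST2-high replicate 1 or ST2KO replicate 1 (0.0748 and 0.0934). H2-M3, which presents formylated bacterial peptides, and the rare H2-Q2 passed in no comparison; H2-Q2 stood between 0.551 and 1.80 CPM and H2-M3 between 24.6 and 30.97 CPM in the 9 libraries.

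Transcripts of these genes are alike, so reads may be assigned to the wrong one. In the GENCODE M21 transcripts, 36.4% of the 50-base stretches of H2-Q4 and 36.4% of those of H2-Q5 also occur in another gene, as do 50.4% of those of H2-T10 and 53.5% of those of H2-T22, in part with each other. For H2-T23 the share was 14.5%, for H2-D1 12.8%, for H2-K1 9.63% and for H2-T24 3.17%. B2m shared none. The authors' handling of reads that match several genes is not given in the sources used here, nor is the strain, and class I genes vary between strains, so the values of H2-Q and H2-T genes are uncertain.

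**Figure D2:**
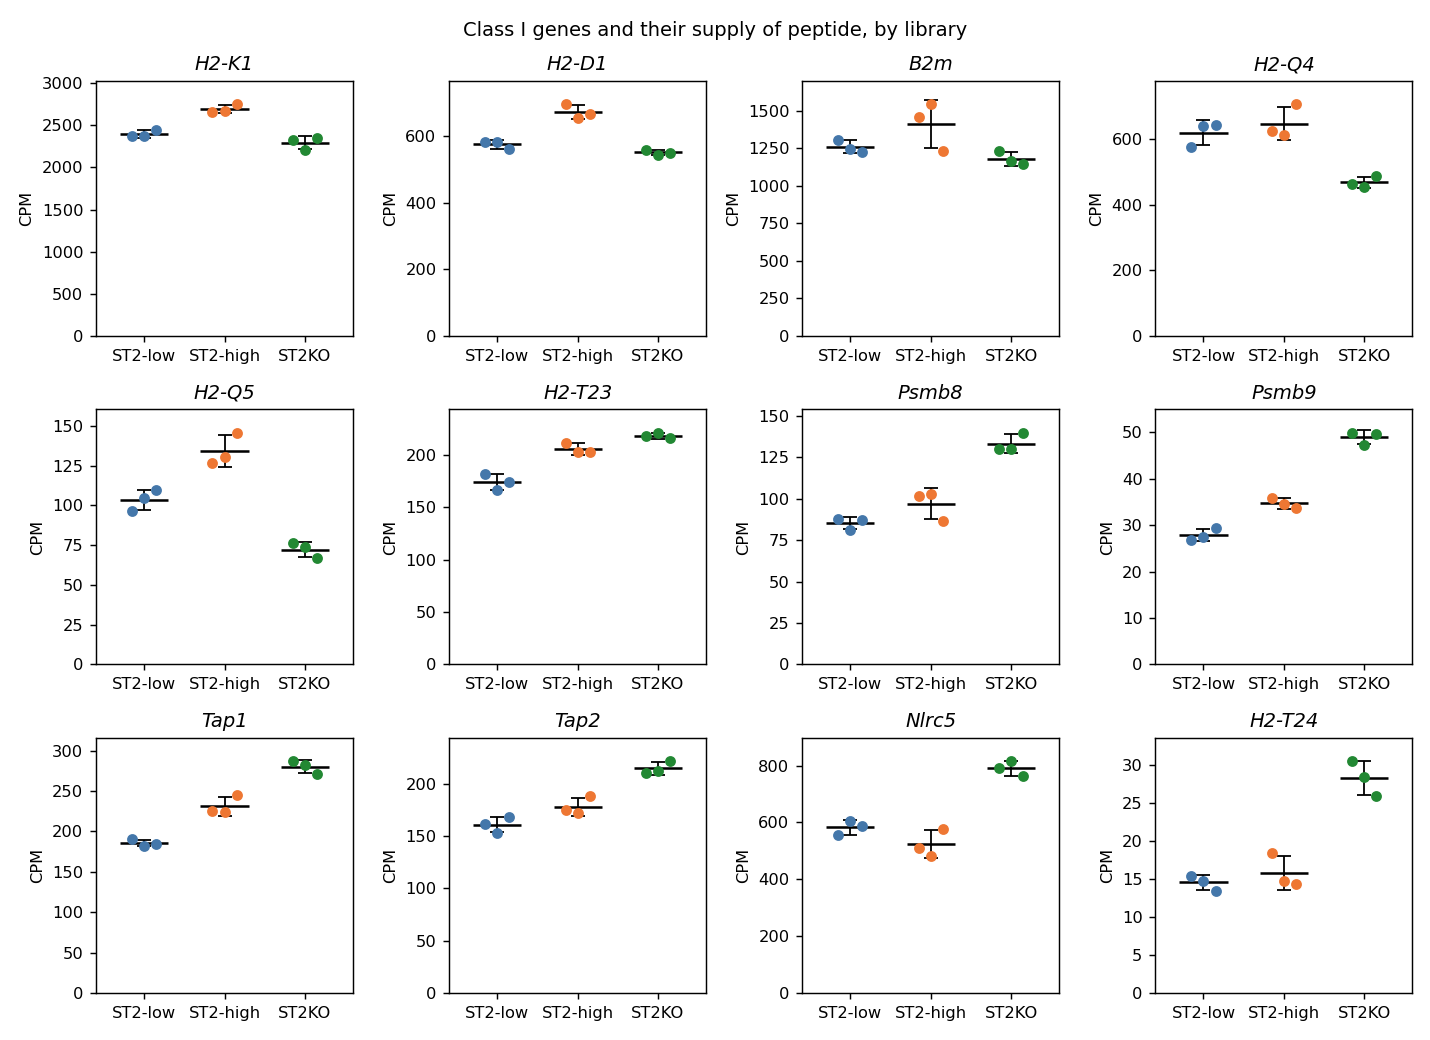
CPM (y axis, from 0) of 12 genes of class I presentation in each library of ST2-low, ST2-high and ST2KO; points are libraries, lines the mean and bars the SD (n = 3). The ST2-high libraries of H2-K1 and H2-D1 lie above all others, whereas Psmb9, Tap1, Tap2, Nlrc5 and H2-T24 are highest in ST2KO.

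The immunoproteasome subunits Psmb8, Psmb9 and Psmb10 replace the constitutive catalytic subunits and change which peptides are cut for class I. All 3 genes were higher in ST2KO than in either wild-type group. Psmb9 stood at 26.7, 27.5 and 29.4 CPM in the ST2-low libraries, 35.9, 34.5 and 33.7 CPM in the ST2-high libraries and 49.9, 47.4 and 49.7 CPM in the ST2KO libraries. The 3 groups did not overlap, with ST2-low lowest and ST2KO highest. Psmb9 was 1.76-fold higher in ST2KO than ST2-low (log2 fold change 0.82 ± 0.072 SE, edgeR adjusted p = 3.42e-11), 1.41-fold higher than ST2-high (edgeR adjusted p = 3.84e-07) and 1.25-fold higher in ST2-high than ST2-low (adjusted p = 0.00131).

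Psmb8 stood at 87.4, 80.8 and 86.9 CPM in the ST2-low libraries, 102, 103 and 86.3 CPM in the ST2-high libraries and 129.9, 129.6 and 139.8 CPM in the ST2KO libraries. Again every ST2KO library lay above every wild-type library, by 1.56-fold against ST2-low (log2 fold change 0.64 ± 0.062 SE, edgeR adjusted p = 2.58e-10) and 1.37-fold against ST2-high (edgeR adjusted p = 1.94e-07). ST2-high and ST2-low overlapped, and the call of Psmb8 as 1.14-fold higher in ST2-high (adjusted p = 0.021) was lost without ST2-low replicate 2, ST2-high replicate 1 or ST2-high replicate 2 and with DESeq2's test (adjusted p between 0.062 and 0.137). Psmb10 stood at 33.9, 29.4 and 37.2 CPM in the ST2-low libraries, 37.3, 38.4 and 33.2 CPM in the ST2-high libraries and 51.02, 48.3 and 55.7 CPM in the ST2KO libraries. It was 1.54-fold higher in ST2KO than ST2-low (log2 fold change 0.62 ± 0.081 SE, edgeR adjusted p = 1.28e-07) and 1.42-fold higher than ST2-high (adjusted p = 3.43e-06), and did not pass between the wild-type groups (adjusted p = 0.332).

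None of the constitutive counterparts was called higher. Psmb6 and Psmb7, the counterparts of Psmb9 and Psmb10, were 1.31-fold lower and 1.36-fold lower in ST2KO than ST2-low (edgeR adjusted p = 0.000228 and 1.43e-05), and Psmb5, the counterpart of Psmb8, did not pass (17.7 ± 2.52 CPM against 19.4 ± 1.35 CPM, adjusted p = 0.352). Within a library, the ratio of Psmb9 to Psmb6 counts was 0.663, 0.647 and 0.679 in ST2-low, 0.867, 0.749 and 0.973 in ST2-high and 1.58, 1.57 and 1.42 in ST2KO. The ratio of Psmb10 to Psmb7 counts was 0.641, 0.634 and 0.832 in ST2-low, 0.764, 0.793 and 0.727 in ST2-high and 1.33, 1.53 and 1.58 in ST2KO. That of Psmb8 to Psmb5 counts was 4.36, 4.54 and 4.30 in ST2-low, 5.30, 4.91 and 4.21 in ST2-high and 6.44, 8.57 and 7.91 in ST2KO. Each of the 3 ratios was higher in every ST2KO library than in every wild-type library. These ratios need no scaling between libraries; they were chosen after the values were seen and are given without a test.

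**Figure D3:**
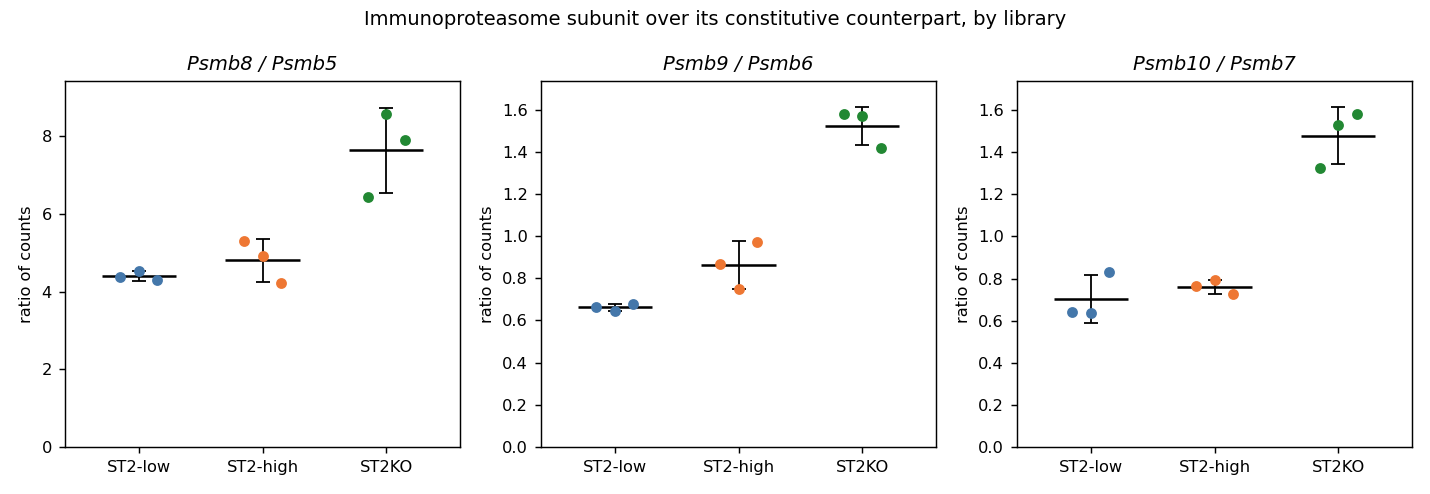
Ratio of the counts of each immunoproteasome subunit to those of its constitutive counterpart (y axis, from 0) in each library; lines are means and bars SD (n = 3). In all 3 panels the ST2KO libraries lie above the wild-type libraries.

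Tap1 and Tap2 form the transporter that carries peptides into the endoplasmic reticulum, and Tapbp encodes tapasin, which holds class I beside it. Tap1 stood at 190.4, 182 and 184 CPM in the ST2-low libraries, 225, 224 and 245 CPM in the ST2-high libraries and 287, 283 and 271 CPM in the ST2KO libraries. As for Psmb9, the groups were separate and rose from ST2-low through ST2-high to ST2KO. Tap1 was 1.51-fold higher in ST2KO than ST2-low (log2 fold change 0.60 ± 0.051 SE, edgeR adjusted p = 2.23e-11), 1.21-fold higher than ST2-high (edgeR adjusted p = 2.04e-05) and 1.24-fold higher in ST2-high than ST2-low (adjusted p = 1.84e-05). Tap2 stood at 162, 153 and 168 CPM in the ST2-low libraries, 175, 172 and 188 CPM in the ST2-high libraries and 211, 212 and 222 CPM in the ST2KO libraries. The ST2KO libraries were again the highest, 1.33-fold above ST2-low (adjusted p = 5.62e-08) and 1.20-fold above ST2-high (adjusted p = 5.03e-05). The call of Tap2 as 1.11-fold higher in ST2-high than ST2-low (adjusted p = 0.0392) was lost in 9 alternatives besides a minimum fold, among them the leaving out of either ST2-low replicate 1 or 2 or ST2-high replicate 1 or 3 (adjusted p up to 0.223). Tapbp stood at 321, 292 and 302 CPM in the ST2-low libraries, 360.4, 355 and 374 CPM in the ST2-high libraries and 334, 334 and 362 CPM in the ST2KO libraries. Both ST2-high and ST2KO lay above ST2-low and overlapped with each other. Tapbp was 1.19-fold higher in ST2-high (adjusted p = 0.000444) and 1.12-fold higher in ST2KO (adjusted p = 0.00588), the latter call being lost without ST2-low replicate 2 (0.121).

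Psmb9 and Tap1 start 226 bases apart on opposite strands, and their RefSeq promoter windows share 275 of 300 bases. The Tap1 window (chr17:34187306-34187605, plus strand) is shown for both, with its CCAAT box in capitals.
Tap1: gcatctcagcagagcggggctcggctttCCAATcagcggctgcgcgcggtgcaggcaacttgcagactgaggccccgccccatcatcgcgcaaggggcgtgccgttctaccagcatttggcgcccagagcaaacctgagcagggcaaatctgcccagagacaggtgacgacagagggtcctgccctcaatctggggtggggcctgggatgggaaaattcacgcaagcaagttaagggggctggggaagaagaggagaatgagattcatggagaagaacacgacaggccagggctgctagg
The letters searched for as the core of the interferon-stimulated response element, GAAANNGAA, are not in this window on either strand. GAAANNGAA is in 8.56% of all promoter windows and in 3 of the 23 members with one, B2m, H2-T23 and H2-T22. Other forms of the element are not found by these letters, so a window without a match may still hold one. The windows of B2m (chr2:122147437-122147736, plus strand) and H2-T23 (chr17:36032652-36032951, minus strand) are shown with GAAANNGAA, which on the other strand reads TTCNNTTTC, and the CCAAT box in capitals.
B2m: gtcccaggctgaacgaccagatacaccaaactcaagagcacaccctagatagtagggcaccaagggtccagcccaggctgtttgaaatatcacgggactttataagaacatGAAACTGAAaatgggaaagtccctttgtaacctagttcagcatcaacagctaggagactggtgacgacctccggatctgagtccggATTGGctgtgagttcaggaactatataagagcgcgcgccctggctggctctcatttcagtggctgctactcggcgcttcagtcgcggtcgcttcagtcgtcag
H2-T23: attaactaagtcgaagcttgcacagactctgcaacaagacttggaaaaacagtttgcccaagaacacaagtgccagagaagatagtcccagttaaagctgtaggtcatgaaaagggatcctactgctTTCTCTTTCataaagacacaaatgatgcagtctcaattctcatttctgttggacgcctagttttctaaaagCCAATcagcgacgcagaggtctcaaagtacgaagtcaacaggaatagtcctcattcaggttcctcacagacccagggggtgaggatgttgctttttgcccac
The match to GAAANNGAA begins 139 bases before the start of B2m and 123 bases before that of H2-T23. Of the 3 genes with a match, only H2-T23 was called higher in ST2KO than ST2-low. H2-T22 passed as higher there with upper-quartile scaling and without ST2-low replicate 1 (edgeR adjusted p = 0.0485 and 0.0346). These matches do not show that a factor was bound, and their part in the levels was not tested.

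Other genes of peptide supply and class I loading went both ways in ST2KO. Of 16 on a list chosen for this pathway, 3 were higher and 9 lower in ST2KO against ST2-low, 2 higher and 9 lower against ST2-high, and 2 higher and 1 lower in ST2-high against ST2-low, with median log2 fold changes of -0.15, -0.22 and 0.018. Of all genes tested, 33.0% were higher and 29.3% lower in the first of these comparisons, 31.9% and 32.6% in the second and 15.3% and 10.8% in the third; these shares are the background of the later lists too. Psme2, a subunit of the interferon-induced proteasome activator, rose with the immunoproteasome, 1.43-fold in ST2KO (101 ± 4.02 CPM against 70.5 ± 5.20 CPM, edgeR adjusted p = 1.94e-08) and 1.25-fold in ST2-high (adjusted p = 0.0002). Calr, the chaperone calreticulin of the loading complex, was 1.62-fold lower in ST2KO than ST2-low (adjusted p = 2.43e-12). Tpp2, a cytosolic peptidase, was 1.34-fold lower (adjusted p = 4.46e-08), and Psme3, a nuclear proteasome activator, 1.31-fold lower (adjusted p = 2.17e-07).

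Nlrc5, the transactivator of class I genes, stood at 554, 606 and 587 CPM in the ST2-low libraries, 511, 482 and 577 CPM in the ST2-high libraries and 793, 816 and 763 CPM in the ST2KO libraries. Every ST2KO library lay above every wild-type library, and the wild-type groups overlapped. Nlrc5 was 1.36-fold higher in ST2KO than ST2-low (log2 fold change 0.44 ± 0.058 SE, edgeR adjusted p = 1.19e-07) and 1.51-fold higher than ST2-high (edgeR adjusted p = 3.38e-10). It was called 1.11-fold lower in ST2-high than ST2-low (adjusted p = 0.0486), a call lost in 8 alternatives besides a minimum fold, among them each single removal of ST2-low replicate 2 or 3, ST2-high replicate 1 or 2 and ST2KO replicate 1 or 2 (adjusted p up to 0.232). So in ST2KO Nlrc5, Tap1 and Psmb9 were higher while H2-K1 and H2-D1 did not pass against ST2-low. Ciita, the transactivator of class II genes, stood at 7.56, 4.80 and 8.09 CPM in the ST2-low libraries, 7.67, 8.06 and 6.59 CPM in the ST2-high libraries and 8.75, 7.01 and 8.92 CPM in the ST2KO libraries. The groups overlapped in every comparison and none passed (edgeR adjusted p = 0.644, 0.159 and 0.458).

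Factors that bind MHC promoters beside the transactivators were given as a list of 10. In ST2KO 6 were higher and 3 lower than ST2-low, and likewise 6 and 3 against ST2-high. In ST2-high against ST2-low 2 were higher and 1 lower. Creb1, which binds the cyclic AMP response element of these promoters, rose in both comparisons with ST2-low, at 97.8 ± 2.86 CPM in the ST2-low group, 128 ± 3.59 CPM in the ST2-high group and 204 ± 3.43 CPM in the ST2KO group (1.31-fold and 2.09-fold, edgeR adjusted p = 4.44e-07 and 1.81e-17). Nfya, a subunit of NF-Y, was 1.45-fold higher in ST2KO than ST2-low (adjusted p = 1.11e-08) and the histone acetyltransferase gene Kat2b 1.32-fold higher (adjusted p = 3.83e-07), while Atf1, a relative of Creb1, was 1.38-fold lower (adjusted p = 3.01e-06).

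Interferon-gamma raises most of the class I genes through its receptor, the kinases Jak1 and Jak2 and transcription factors such as Irf1. Of 16 genes on a list of that route, 4 were higher and 8 lower in ST2KO against ST2-low, 6 higher and 8 lower against ST2-high, and 5 higher and 3 lower in ST2-high against ST2-low. The receptor chain genes fell steeply in ST2KO: Ifngr2 stood at 226, 199 and 196 CPM in the ST2-low libraries, 141, 140.0 and 134 CPM in the ST2-high libraries and 43.4, 40.9 and 40.7 CPM in the ST2KO libraries. It was 4.95-fold lower in ST2KO than ST2-low (log2 fold change -2.31 ± 0.061 SE, edgeR adjusted p = 8.77e-24) and 1.49-fold lower in ST2-high than ST2-low (edgeR adjusted p = 1.35e-09). In ST2KO against ST2-low, Ifngr1 was 2.99-fold lower (adjusted p = 1.65e-19), Jak2 3.002-fold lower (adjusted p = 1.16e-20) and Ifnar1, a chain of the type I interferon receptor, 1.98-fold lower (adjusted p = 1.65e-15). Irf1 stood at 363 ± 21.04 CPM, 450.0 ± 18.9 CPM and 349 ± 7.15 CPM for the ST2-low, ST2-high and ST2KO libraries (edgeR adjusted p = 3.60e-05 for ST2-high and 0.331 for ST2KO, each against ST2-low); Irf1 was named after its values were seen.

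Class II genes encode the alpha and beta chains H2-Aa, H2-Ab1 and H2-Eb1, the invariant chain Cd74 that occupies their groove until peptide is loaded, and the chaperones H2-DM and H2-O. Of the 10 kept here, 5 were lower and none higher in ST2KO against ST2-low, 5 lower and 1 higher in ST2KO against ST2-high, and none passed in ST2-high against ST2-low. Of all genes tested, 29.3% were lower and 33.0% higher in ST2KO against ST2-low, and 32.6% and 31.9% against ST2-high. At an unadjusted p under 0.05, ST2-high against ST2-low had 1 higher and 1 lower by edgeR's test, and DESeq2's test called 0 of the 10. In ST2KO, DESeq2's test called 5 lower and 0 higher against ST2-low, and 5 lower and 1 higher against ST2-high. The median log2 fold change of the 10 was -0.56 and -0.50 in the comparisons with ST2KO and 0.034 between the wild-type groups.

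H2-Ab1 stood at 57.7, 36.1 and 49.5 CPM in the ST2-low libraries, 51.7, 47.8 and 47.3 CPM in the ST2-high libraries and 23.9, 20.1 and 29.1 CPM in the ST2KO libraries. H2-Aa stood at 65.1, 42.1 and 60.9 CPM in the ST2-low libraries, 61.2, 54.6 and 45.2 CPM in the ST2-high libraries and 29.7, 22.1 and 33.8 CPM in the ST2KO libraries. H2-Eb1 stood at 61.4, 36.7 and 65.7 CPM in the ST2-low libraries, 59.6, 54.3 and 53.05 CPM in the ST2-high libraries and 24.1, 18.3 and 34.03 CPM in the ST2KO libraries. In all 3 genes the ST2KO libraries lay below every wild-type library, and ST2-low replicate 2 was the lowest wild-type library. H2-Ab1 was 1.98-fold lower in ST2KO than ST2-low (log2 fold change -0.99 ± 0.18 SE, edgeR adjusted p = 0.00175), H2-Aa 1.97-fold lower (log2 fold change -0.98 ± 0.23 SE, edgeR adjusted p = 0.00853) and H2-Eb1 2.19-fold lower (log2 fold change -1.13 ± 0.29 SE, edgeR adjusted p = 0.0132). Against ST2-high they were 2.04-fold, 1.90-fold and 2.24-fold lower (edgeR adjusted p = 0.00134, 0.0105 and 0.0114). The call of H2-Eb1 against ST2-low was lost without ST2KO replicate 1 (adjusted p = 0.0532). Cd74 stood at 228, 164 and 215 CPM in the ST2-low libraries, 257, 222 and 207 CPM in the ST2-high libraries and 124, 105 and 155 CPM in the ST2KO libraries, and every ST2KO library was again below every wild-type library. It was 1.59-fold lower in ST2KO than ST2-low (adjusted p = 0.0209), a call lost without ST2-low replicate 1 or 3 or ST2KO replicate 1 or 2 (adjusted p between 0.0556 and 0.0679), and 1.80-fold lower than ST2-high (adjusted p = 0.00735).

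Fewer of the chaperone genes were called. H2-DMa, which with a beta chain swaps the invariant chain fragment for peptide, stood at 13.2, 10.8 and 13.1 CPM in the ST2-low libraries, 13.1, 15.2 and 11.3 CPM in the ST2-high libraries and 13.5, 14.8 and 11.3 CPM in the ST2KO libraries and passed in no comparison. Its partners H2-DMb1 and H2-DMb2, which share 22.7% and 25.9% of their 50-base stretches with other genes, largely each other, did not pass either; H2-DMb1 stood between 1.78 and 3.94 CPM and H2-DMb2 between 2.98 and 5.68 CPM in the 9 libraries. H2-DMb1 passed as lower in ST2KO than ST2-low without ST2-low replicate 2 or ST2KO replicate 3 (edgeR adjusted p = 0.0491 and 0.0339). H2-DMb2 did so without ST2-low replicate 2 (0.0370), and passed as lower than ST2-high without ST2-low replicate 2, ST2-high replicate 3 or ST2KO replicate 3 (adjusted p = 0.0460, 0.0321 and 0.0327). H2-Ob, a chain of the inhibitor H2-O, stood at 66.9, 57.7 and 63.8 CPM in the ST2-low libraries, 59.2, 57.3 and 52.8 CPM in the ST2-high libraries and 63.2, 63.7 and 70.2 CPM in the ST2KO libraries. It was 1.16-fold higher in ST2KO than ST2-high (edgeR adjusted p = 0.00788), a call lost without ST2-high replicate 3 (0.0761), and did not pass against ST2-low. Its partner H2-Oa was 1.46-fold lower in ST2KO than ST2-high (adjusted p = 0.00522), at 6.43, 5.18 and 6.98 CPM in the ST2-low libraries, 8.99, 9.04 and 6.66 CPM in the ST2-high libraries and 6.12, 6.13 and 4.34 CPM in the ST2KO libraries. The rare beta chain gene H2-Eb2 was 1.66-fold lower in ST2KO than ST2-low (adjusted p = 0.0121), at 2.97, 2.98 and 2.56 CPM in the ST2-low libraries, 2.61, 2.20 and 2.11 CPM in the ST2-high libraries and 1.87, 1.58 and 1.55 CPM in the ST2KO libraries. All ST2KO libraries of H2-Eb2 lay below all others, but the difference from ST2-high did not pass (adjusted p = 0.118). In RNA of whole cell populations, fewer cells of a type and less RNA per cell cannot be told apart.

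Markers of B cells and of dendritic cells and macrophages, the cells known for class II, were present in these libraries, and 7 of 13 and 15 of 16 tested were lower in ST2KO than ST2-low. Of 15 B cell markers listed, 13 were found and tested; 7 were lower and none higher in ST2KO against ST2-low, 8 and none against ST2-high, and 1, Cd79b, was higher in ST2-high against ST2-low. Their summed level was 145 to 216 CPM over the ST2-low libraries, 164 to 201 CPM over the ST2-high libraries and 131 to 167 CPM over the ST2KO libraries. The defining B cell markers Cd79a and Ms4a1 were not at 0: Cd79a stood at 15.2 ± 3.73 CPM, 15.2 ± 1.44 CPM and 11.2 ± 1.81 CPM for the ST2-low, ST2-high and ST2KO libraries, and Ms4a1 at 22.9 ± 4.14 CPM, 23.5 ± 4.30 CPM and 17.2 ± 4.46 CPM. Of 20 dendritic cell and macrophage markers, 19 were found and 16 tested, of which 15 were lower in ST2KO against ST2-low, 14 against ST2-high, and none higher. In ST2-high against ST2-low 5 were lower and 1, Zbtb46, higher (19.03 ± 2.11 CPM against 3.77 ± 0.748 CPM, with 0.830 ± 0.238 CPM in ST2KO). The summed level of these markers was 172 to 223 CPM over the ST2-low libraries, 160.3 to 165 CPM over the ST2-high libraries and 39.03 to 58.3 CPM over the ST2KO libraries. In the same order of groups, Csf1r stood at 27.4 ± 5.99 CPM, 20.2 ± 2.28 CPM and 5.83 ± 1.09 CPM, Itgax at 5.30 ± 0.0179 CPM, 4.49 ± 0.670 CPM and 2.31 ± 0.0246 CPM, Lyz2 at 33.5 ± 5.69 CPM, 29.4 ± 3.58 CPM and 11.6 ± 2.62 CPM, and Flt3 at 1.73 ± 0.781 CPM, 1.54 ± 0.191 CPM and 0.777 ± 0.186 CPM. Clec10a was too rare to be tested, with 0, 5 and 0 counts in ST2-low, 4, 1 and 0 in ST2-high and 0, 0 and 0 in ST2KO. Cd79b, Zbtb46 and Clec10a were named after their values were seen.

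The sum of H2-Aa, H2-Ab1, H2-Eb1 and Cd74 was 412, 279 and 391 CPM in the ST2-low libraries, 429, 379 and 352 CPM in the ST2-high libraries and 202, 165 and 252 CPM in the ST2KO libraries. Within each group the libraries held the same order in this sum and in the summed B cell markers. Divided by the B cell markers, the class II sum was 1.91, 1.93 and 1.999 in ST2-low, 2.14, 2.02 and 2.15 in ST2-high and 1.32, 1.26 and 1.51 in ST2KO, lower in every ST2KO library than in every wild-type library. Divided by the dendritic cell and macrophage markers it was 2.37, 1.62 and 1.76 in ST2-low, 2.65, 2.30 and 2.20 in ST2-high and 3.46, 4.24 and 5.17 in ST2KO, higher in every ST2KO library. Relative to the wild-type libraries, the class II sum in ST2KO was thus lower by a larger factor than the B cell markers and by a smaller factor than the dendritic cell and macrophage markers. The part of these other cells in the class II result was not tested.

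**Figure D4:**
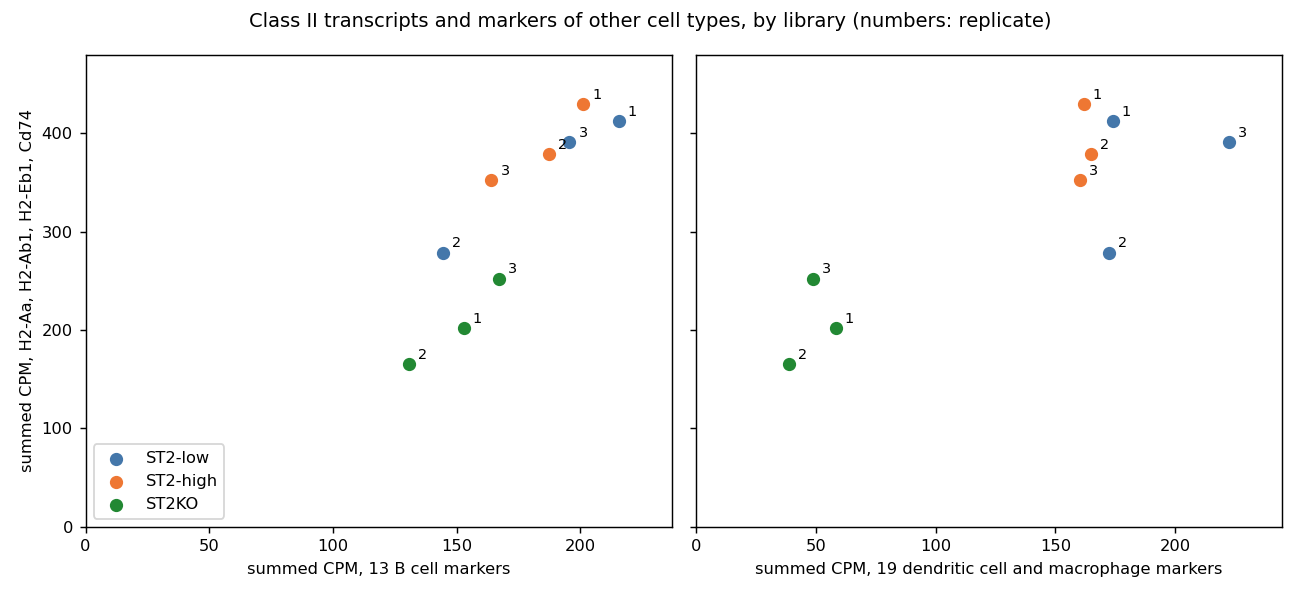
Summed CPM of H2-Aa, H2-Ab1, H2-Eb1 and Cd74 (y axis) against the summed CPM of 13 B cell markers (left) and of 19 dendritic cell and macrophage markers (right) in each library, numbered by replicate, both axes from 0. The ST2KO libraries lie lowest on the y axis, below wild-type libraries of like B cell marker level.

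The promoters of class II chain genes are shown for comparison with those of class I. H2-Aa (chr17:34287774-34288073, minus strand) and H2-Eb1 (chr17:34305617-34305916, plus strand) hold CCAAT boxes, in capitals. They hold none of the other letters searched: GGGATTCCC, GAAANNGAA and TTCNNNGAA, the last standing for the gamma-activated site. TTCNNNGAA is in 8.3% of all promoter windows and in 3 of the 23 members with one, H2-DMb2, Psmb8 and H2-M3. Such a match does not show that a factor was bound.
H2-Aa: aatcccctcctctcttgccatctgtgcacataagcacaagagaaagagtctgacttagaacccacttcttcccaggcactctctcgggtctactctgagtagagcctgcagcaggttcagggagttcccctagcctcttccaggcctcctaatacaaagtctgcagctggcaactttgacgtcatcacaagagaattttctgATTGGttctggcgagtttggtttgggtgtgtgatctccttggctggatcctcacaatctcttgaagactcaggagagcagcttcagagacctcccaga
H2-Eb1: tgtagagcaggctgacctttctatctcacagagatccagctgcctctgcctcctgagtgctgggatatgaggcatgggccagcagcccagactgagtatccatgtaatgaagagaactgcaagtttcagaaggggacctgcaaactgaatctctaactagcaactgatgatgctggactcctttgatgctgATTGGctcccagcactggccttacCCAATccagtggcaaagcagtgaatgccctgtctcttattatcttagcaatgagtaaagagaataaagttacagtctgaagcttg
The CCAAT box begins 48 bases before the start of H2-Aa and 59 and 35 bases before that of H2-Eb1. The same box lies in the windows of Psmb9 and Tap1. It is common, in 19 of the 23 members with a window, and its part in the levels was not tested.

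Along mouse chromosome 17 these genes are neighbours. In RefSeq's order of protein-coding genes, H2-Oa, Brd2, H2-DMa, H2-DMb2, H2-DMb1, Psmb9, Tap1, Psmb8, Tap2, H2-Ob, H2-Ab1, H2-Aa, H2-Eb1 and H2-Eb2 follow each other. Psmb9, Tap1, Psmb8 and Tap2, which are adjacent, were higher in ST2KO than in either wild-type group, and H2-Ab1, H2-Aa and H2-Eb1, on the far side of H2-Ob, were lower. Brd2, a chromatin reader gene within the block and no antigen presentation gene, was lower in ST2KO than ST2-low, with a log2 fold change of -0.62 (edgeR adjusted p = 1.05e-11).

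**Figure D5:**
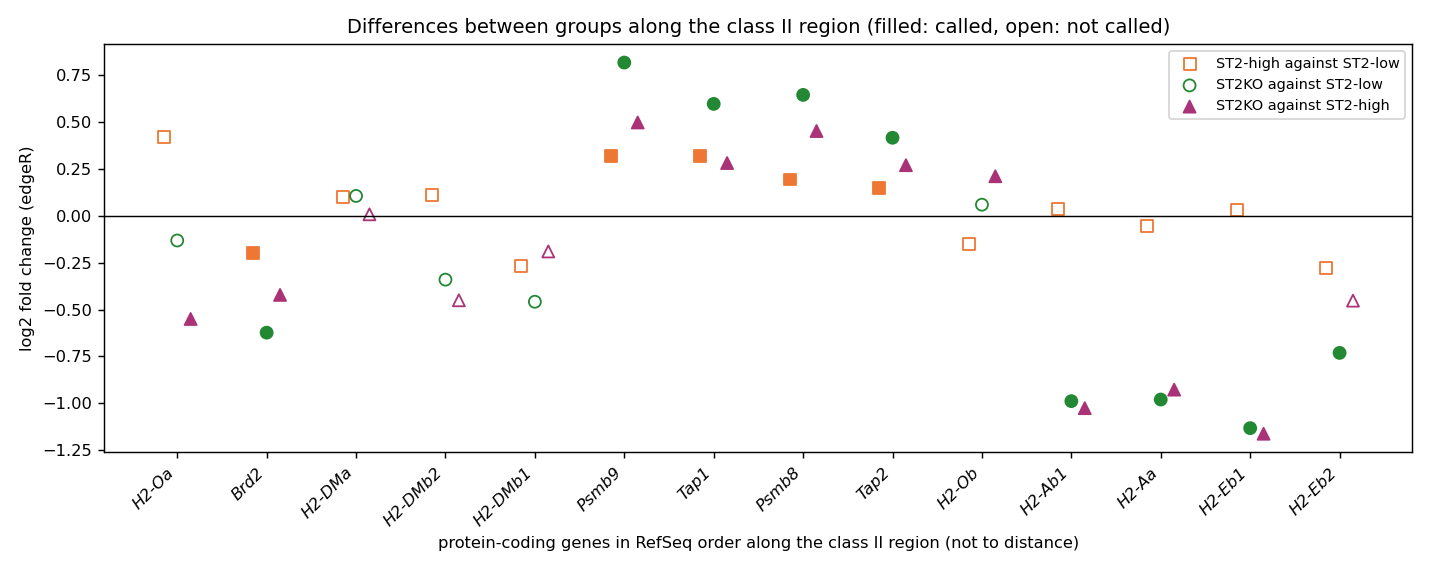
Log2 fold change from edgeR (y axis) of 14 protein-coding genes in their order along the class II region (x axis, not to distance) in 3 comparisons; filled symbols are called, open symbols not. Psmb9, Tap1, Psmb8 and Tap2 form a block above 0 and H2-Ab1, H2-Aa, H2-Eb1 and H2-Eb2 lie below it in ST2KO against ST2-low.

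Enzymes that prepare peptides and the invariant chain for class II were followed on a list of 10, of which 9 were found. In ST2KO 5 were lower and 1 higher than ST2-low, and 5 and 1 than ST2-high, and in ST2-high 1 was higher and 1 lower than ST2-low. Lgmn, the asparaginyl endopeptidase of lysosomes, stood at 14.4, 13.4 and 14.6 CPM in the ST2-low libraries, 32.9, 28.2 and 31.1 CPM in the ST2-high libraries and 10.7, 10.4 and 13.1 CPM in the ST2KO libraries. It was 2.18-fold higher in ST2-high than ST2-low (log2 fold change 1.12 ± 0.10 SE, edgeR adjusted p = 2.96e-10) and 2.74-fold lower in ST2KO than ST2-high (edgeR adjusted p = 1.84e-13). Ctsl, a cathepsin that cuts the invariant chain, was 2.34-fold lower in ST2KO than ST2-low (adjusted p = 4.54e-09) and 1.46-fold lower in ST2-high than ST2-low (adjusted p = 0.00196). Ctsb was 1.22-fold lower and Ctsd 1.22-fold higher in ST2KO than ST2-low (adjusted p = 2.39e-05 and 2.66e-05).

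H2-Ke2 and H2-Ke6 lie in the MHC but encode a prefoldin subunit and a steroid dehydrogenase. H2-Ke6 was 1.31-fold higher in ST2KO than ST2-low (edgeR adjusted p = 0.000307), at 27.01, 23.7 and 29.8 CPM in the ST2-low libraries, 27.2, 27.8 and 27.2 CPM in the ST2-high libraries and 35.4, 31.9 and 38.4 CPM in the ST2KO libraries, and 70.5% of its 50-base stretches also belong to the overlapping model Gm20427. H2-Ke2, at 6.87 to 10.2 CPM over the 9 libraries, passed in no comparison. Of the 21 rows not kept, 14 had no count in any library: H2-Ea-ps, H2-Q6, H2-Q7, H2-Q9, H2-T9 and 9 genes of the H2-M group. The other 7, H2-L, H2-Q1, H2-Q8, H2-Bl, H2-T3, H2-M5 and H2-M2, had at most 7 counts in a library. Of the 50-base stretches of H2-Q6 and H2-Q7, 35.0% and 26.5% occur in other genes.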

How the data were processed

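RNA of spleen Tregs was sequenced in 9 samples, grouped by the genotype labels. Each deposited file holds raw counts per gene symbol for 1 sample, per the file headers; aligner, genome build, annotation and strand setting (not given in the sources used here) could not be considered, and overlapping or antisense genes may have exchanged reads. Of 23420 rows, 27 with symbols turned into dates (0.182% to 0.206% of counts) were left out; Rn45s took 12.1% to 16.9% of counts. Within groups, samples differed by more than counting noise (chi-square per gene 4.46 to 19.9).

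Counts were filtered with filterByExpr (minimum count 10, total 15), scaled with TMM and tested with edgeR 4.0.16's quasi-likelihood test (R 4.3.3, limma 3.58.1) on all 9 samples with Benjamini-Hochberg adjustment at 0.05 over 12219 genes; folds come from that fit, and its SE is the log2 fold change over the square root of F. The fit was tested on simulated data. Alternatives were DESeq2 1.42.0, DESeq2 or upper-quartile scaling, other filters, the 6 samples compared, a replicate block, a minimum fold of 1.5, no Rn45s, and each sample left out. Every kept gene is accounted for; of each pathway list up to 4 genes of at least 1 CPM are named, by adjusted p, with exceptions stated; some genes of these lists are not reported here by name. Genes and lists were chosen with earlier results of these data known. Promoters came from RefSeq, matched by symbol for 23 of 33 genes, and transcripts from GENCODE M21.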

Additional observations from a re-analysis of the deposited data

How the results depend on the processing

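No call of the 33 genes changed direction under the alternatives run. Over genes, comparisons and alternatives, 1649 gene values kept their side of the threshold, 89 lost it and 26 gained it; 47 of the losses fell under the minimum fold of 1.5. With that limit, 0 genes were higher and 0 lower in ST2-high against ST2-low, 3 higher (Psmb9, H2-Q10 and H2-T24) and 0 lower in ST2KO against ST2-low, and 2 higher (H2-Q10 and H2-T24) and 2 lower (H2-Ab1 and H2-Q5) in ST2KO against ST2-high; H2-Q10 was kept only through ST2-high and ST2KO, so its call against ST2-low supports nothing. In ST2-high against ST2-low the count of lower genes fell from 2 to 1 when only the 6 samples were fitted. With the replicate block it was also 1, and 12 genes were higher; the block gave 12 higher and 8 lower in ST2KO against ST2-low and 11 and 11 against ST2-high. Whether samples of the same number belong together is not labelled. Their deviations correlated between -0.073 and 0.11, and not every sample correlated best with its own number. Such weak correlations cannot decide whether the samples were paired. Leaving out 1 sample gave 7 to 11 higher and 1 to 2 lower genes in ST2-high against ST2-low, 10 to 12 and 5 to 9 in ST2KO against ST2-low, and 10 to 11 and 11 to 12 against ST2-high. The lowest counts came without ST2-low replicate 2 (7 higher in ST2-high) and without ST2KO replicate 1 (5 lower in ST2KO against ST2-low). Besides the gains given with their genes, H2-K2, H2-M3 and H2-T22 passed as higher in ST2KO against ST2-low in 2 alternatives each, upper-quartile scaling among them, H2-T10 passed as higher against ST2-high with that scaling, and in ST2-high against ST2-low H2-Oa passed as higher in 1 alternative and H2-Ob as lower in 2. The ratios of summed levels by role, recomputed with DESeq2 size factors and with Rn45s left out, moved by less than the spread between samples. The minimum fold lowers counts by its construction; for the other counts that moved, the cause was not tested. Depth limits H2-Q10, H2-Q2, H2-T22, H2-Eb2 and H2-DMb1, with at most 140 counts in a library.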

Other observations

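Relatives of class I that carry no H2- symbol were followed on a list of 8, of which 5 were tested. In ST2KO 2 were higher and 2 lower than ST2-low, and in ST2-high 1 was higher than ST2-low by edgeR's test. Ulbp1, a ligand of the activating receptor NKG2D, stood at 3.19, 3.20 and 3.67 CPM in the ST2-low libraries, 4.50, 5.91 and 6.13 CPM in the ST2-high libraries and 10.004, 9.47 and 7.44 CPM in the ST2KO libraries. The groups did not overlap and rose in that order, 1.62-fold in ST2-high and 2.71-fold in ST2KO above ST2-low (edgeR adjusted p = 0.00519 and 2.82e-08). Mr1, which presents microbial vitamin B metabolites to MAIT cells, was 1.63-fold higher in ST2KO than ST2-low (12.01 ± 2.70 CPM against 7.16 ± 0.691 CPM, adjusted p = 0.000338). Hfe, a regulator of iron uptake, was 4.48-fold lower (0.323 ± 0.159 CPM against 1.39 ± 0.109 CPM, adjusted p = 7.83e-05) and Fcgrt, the neonatal Fc receptor, 2.12-fold lower (adjusted p = 0.0065).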
